A study of Danio rerio with 12 samples.

Results

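Whole zebrafish larvae exposed to 0.03 ppm perfluorooctanesulfonate (PFOS), the lowest concentration of a series that also used 0.3 and 1 ppm, were compared with larvae that received the solvent alone. The comparison took the 3 libraries labelled 0.03 ppm PFOS against the 3 labelled Control and kept every gene with a value of 10 or more in at least 3 of these 6 libraries, which left 21864 of the 26873 genes in the files. At that limit, 369 genes reached 10 in exactly 3 of the 6 libraries and were kept, and 356 reached it in exactly 2 and were not. Exposed larvae were wild type, were kept in water with PFOS potassium salt in 0.2% DMSO from 2 to 5 days post fertilization and were frozen at 5 days. Control larvae were wild type of the same age in water with 0.2% DMSO, so both groups carried the solvent. Each library was a pool of 10 larvae, made with a stranded poly-A kit. Whether pools shared a clutch or a tank is not stated. Each p-value therefore measures the spread between pools, estimated over all 12 libraries of the series.

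PFOS is a fluorinated surfactant that resists breakdown and binds to proteins of blood and liver. In rodents it activates the nuclear receptor PPAR alpha, which switches on fatty acid oxidation. A larva of this age lives on its yolk, is free-swimming, and has working muscle and an innate immune system, whereas its adaptive immune system is not yet mature.

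Each deposited value is a normalised read count of 1 gene, given as a whole number, and the values summed to 24061372 to 29417711 in the exposed libraries and 26550471 to 30824955 in the control libraries. Markers of skeletal muscle, liver, lens, neurons, epidermis, macrophages and neutrophils were present in all 6 libraries, as a whole larva should have, and the yolk protein gene vtg1 was listed at 0 to 2. Control replicate 1 stood apart from the other 5 libraries. It lay at -68.72 on the first principal component, which held 40.35% of the variance, against -7.41 to 45.89 for the others, and the neuron and synapse list made up 0.393% of its total against 0.133% to 0.248%. The replicate 2 libraries of both groups had the highest share of epidermal transcripts, 12.0% in the exposed and 8.98% in the control library, against 5.34% to 8.29% in the other 4.

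A small set of transcripts was lower in larvae exposed to 0.03 ppm, and no gene passed the test in the higher direction. Genes counted as called had a Benjamini-Hochberg adjusted p below 0.05 in limma, which was run on log2 of the value plus 1 over all genes, with the spread estimated from all 12 libraries of the series. By that rule 13 of the 21864 genes were called, 0.0595% of those tested, and all 13 were lower in exposed larvae. The smallest adjusted p of any higher gene was 0.2753. Unadjusted p-values below 0.05 were found for 771 genes, 3.53%, of which 423 were lower and 348 higher, where 1093 would be expected if no gene differed. Of all genes tested 53.3% had a fold change below 0, and the median log2 fold change was -0.02, with 5th and 95th percentiles of -0.53 and 0.44. Among genes with a mean of 50 or more, at least a 2-fold difference on the log2(value + 1) scale and no overlap between the groups, 64 were lower (0.293% of genes tested) and 5 higher (0.0229%). Fold changes on this scale understate the change of low genes.

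**Figure D1:**
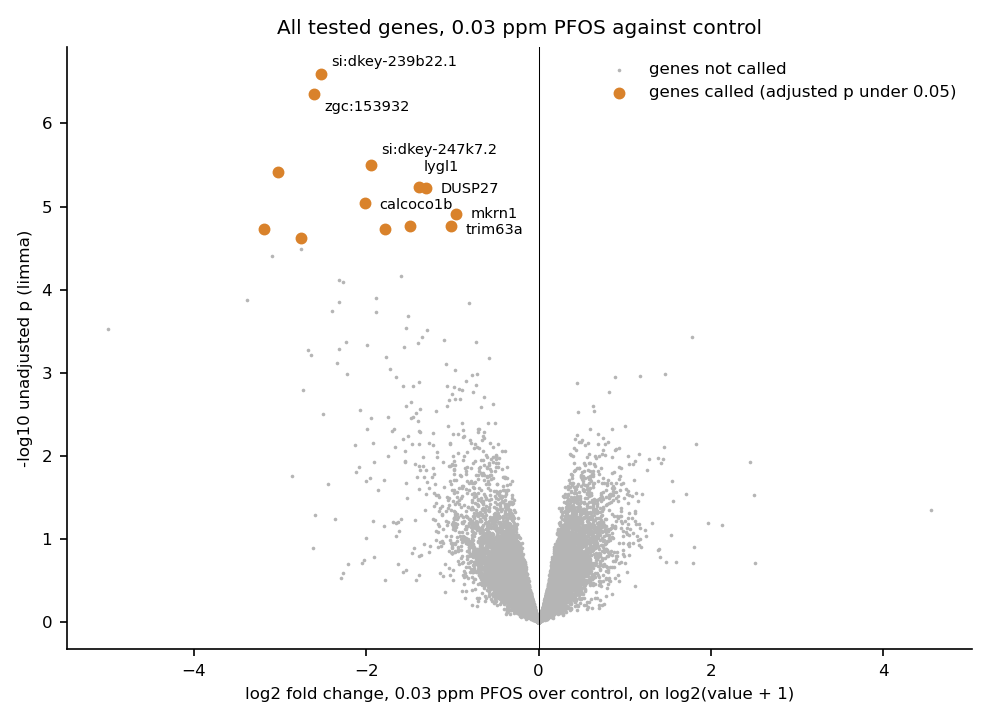
Log2 fold change of each of the 21864 tested genes, 0.03 ppm PFOS over control on the log2(value + 1) scale, against -log10 of the unadjusted limma p. The 13 called genes (orange, 8 of them labelled) all lie left of 0, and no gene on the right was called.

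The number of calls moved when single libraries were left out. Leaving out control replicate 1, 2 or 3 gave 2, 11 and 2 calls, and leaving out exposed replicate 1, 2 or 3 gave 0, 8 and 2. With only these 6 libraries in the fit, in place of all 12, there were 3 calls, si:dkey-239b22.1, zgc:153932 and BX072532.2. The adjusted p of the called genes of known product was then 0.2993 for trim63a, 0.1650 for DUSP27, 0.1319 for calcoco1b, 0.2601 for mkrn1 and 0.1071 for lygl1. All 13 genes kept a lower level in exposed larvae when single libraries were left out. si:dkey-239b22.1 and zgc:153932 were called in 5 of these 6 fits, and si:dkey-247k7.2 and si:ch211-226h7.6 in 2. trim63a, DUSP27, calcoco1b, mkrn1, lygl1 and FO704620.1 were called in 1, and si:ch211-207n23.2, BX072532.2 and si:ch211-226h7.8 in 0. In the main fit all 13 calls were among protein-coding genes, and 0 fell among the genes whose mean over the 6 libraries was below 100.

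The products of 5 called genes are known, and 2 of these act in muscle. trim63a encodes the muscle ubiquitin ligase MuRF1, which marks myofibrillar proteins for the proteasome. Its value was 994, 784 and 768 in the exposed libraries, against 1665, 1476 and 1997 in the control libraries (log2 fold change -1.01, SE 0.15, adjusted p = 0.0344). DUSP27 belongs by sequence to the family of atypical phosphatases and is needed for the ordered build of muscle fibres in zebrafish. It had 622, 583 and 463 in exposed larvae and 1491, 1099 and 1560 in controls (-1.31, SE 0.17, adjusted p = 0.0220). The highest exposed pool stayed below the lowest control pool for both muscle genes, as it did for 3.85% of all genes.

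calcoco1b belongs to a family of autophagy receptors, which tether cargo to the forming autophagosome. It had 47, 84 and 88 in exposed libraries, against 320, 230 and 325 in controls, a 4.05-fold lower level (log2 fold change -2.02, SE 0.28, adjusted p = 0.0280). mkrn1 encodes makorin 1, a RING-finger ubiquitin ligase, and had 711, 784 and 806 in exposed larvae, against 1446, 1325 and 1716 in controls (-0.96, SE 0.14, adjusted p = 0.0335). lygl1, a lysozyme of the goose type that cuts bacterial cell walls, had 207, 240 and 168 in exposed larvae and 521, 576 and 501 in controls (-1.39, SE 0.18, adjusted p = 0.0220). None of these 3 genes had overlapping groups. They were called from these same values, and 3.85% of all genes were lower without overlap.

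Both of the other called genes outside the region described below carry clone names, and the files give no function for them. si:dkey-247k7.2 had 2201, 2387 and 2138 in exposed libraries, against 11536, 6499 and 8514 in controls (log2 fold change -1.94, SE 0.24, adjusted p = 0.0211). si:ch211-207n23.2 had 1305, 1429 and 1029 in exposed libraries and 3886, 3062 and 3601 in controls (-1.49, SE 0.22, adjusted p = 0.0344).

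The remaining 6 called genes sat close together in the order of the files. That order kept chromosomes together: of 17666 pairs of successive genes found by symbol in RefSeq, 98.47% lay on the same chromosome. Genes not found there were skipped, and position within a chromosome was not compared. Closeness here therefore means closeness in file order. Outside the region, no pair of called genes was closer than 522 tested genes. si:dkey-239b22.1 had the smallest p of the comparison, with 1064, 1206 and 1251 in exposed libraries, against 8203, 5302 and 7128 in controls, 5.78-fold lower (adjusted p = 0.00488). Its direct neighbours in file order were also lower without overlap, as were 3.85% of all genes. si:ch211-39f2.3 had 26, 89 and 202 in exposed larvae and 540, 229 and 330 in controls, and si:ch73-181m17.1 had 37, 36 and 48 in exposed larvae and 183, 88 and 263 in controls, though neither was called (adjusted p = 0.9975 for both).

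Past 47 further tested genes, of which 5 were at least 2-fold lower and 0 were called, came a second stretch of 13 tested genes that runs from si:ch211-226h7.3 to BX005305.6. Of all genes tested, 3.85% were lower without overlap. In this stretch 11 of 13 genes were at least 2-fold lower in exposed larvae with no overlap between the groups, and 5 of these 11 were called. Their median, over all 13, was -2.31 on the log2 scale. zgc:153932 had 720, 701 and 845 in exposed libraries, against 4800, 3408 and 5919 in controls (log2 fold change -2.61, SE 0.27, adjusted p = 0.00488). FO704620.1 had 379, 598 and 507 in exposed libraries and 1533, 1190 and 2602 in controls (-1.79, adjusted p = 0.0344). Every exposed pool of these genes was below every control pool.

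Several genes of the stretch are named for the same sequencing clone, si:ch211-226h7. si:ch211-226h7.6 had 25, 52 and 55 in exposed larvae and 388, 250 and 423 in controls (log2 fold change -3.02, SE 0.39, adjusted p = 0.0211). si:ch211-226h7.8 had 27, 42 and 40 in exposed larvae and 203, 204 and 365 in controls (-2.76, SE 0.42, adjusted p = 0.0402). si:ch211-226h7.7, annotated as a pseudogene, had 8, 3 and 11 in exposed larvae and 34, 32 and 45 in controls and was not called. BX072532.2, further along, had the largest fold of the called genes, with 28, 31 and 49 in exposed larvae and 374, 312 and 298 in controls, 9.11-fold lower (adjusted p = 0.0344). At the far end BX005305.6 had 3, 16 and 4 in exposed larvae and 122, 45 and 67 in controls without being called (adjusted p = 0.1451).

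A pair of genes inside the stretch did not follow the rest. si:ch211-226h7.4, a pseudogene, had 35, 102 and 68 in exposed libraries and 29, 70 and 82 in controls, and hid1b, which encodes a protein of the Golgi, had 89, 132 and 111 in exposed libraries and 59, 106 and 115 in controls. The 20 tested genes before the region had a median log2 fold change of 0.07 and the 20 after it one of -0.10, with 0 genes at least 2-fold lower on either side. Across all tested genes in file order there were 3 runs of at least 3 direct neighbours that were all at least 2-fold lower without overlap, and 0 such runs in the higher direction. All 3 lie in this region. The region was chosen after its values were seen, so its counts are a description with no test. Each stretch was extended for as long as another lower gene without overlap lay close by in file order. The high share inside and the contrast with the genes just outside therefore follow in part from that rule. Genes that share a clone name may be near-identical copies, and how reads were split between such copies is not given in the sources used here, so the single values are uncertain. The region's position is not given, because no annotation of the files' build was used here.

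**Figure D2:**
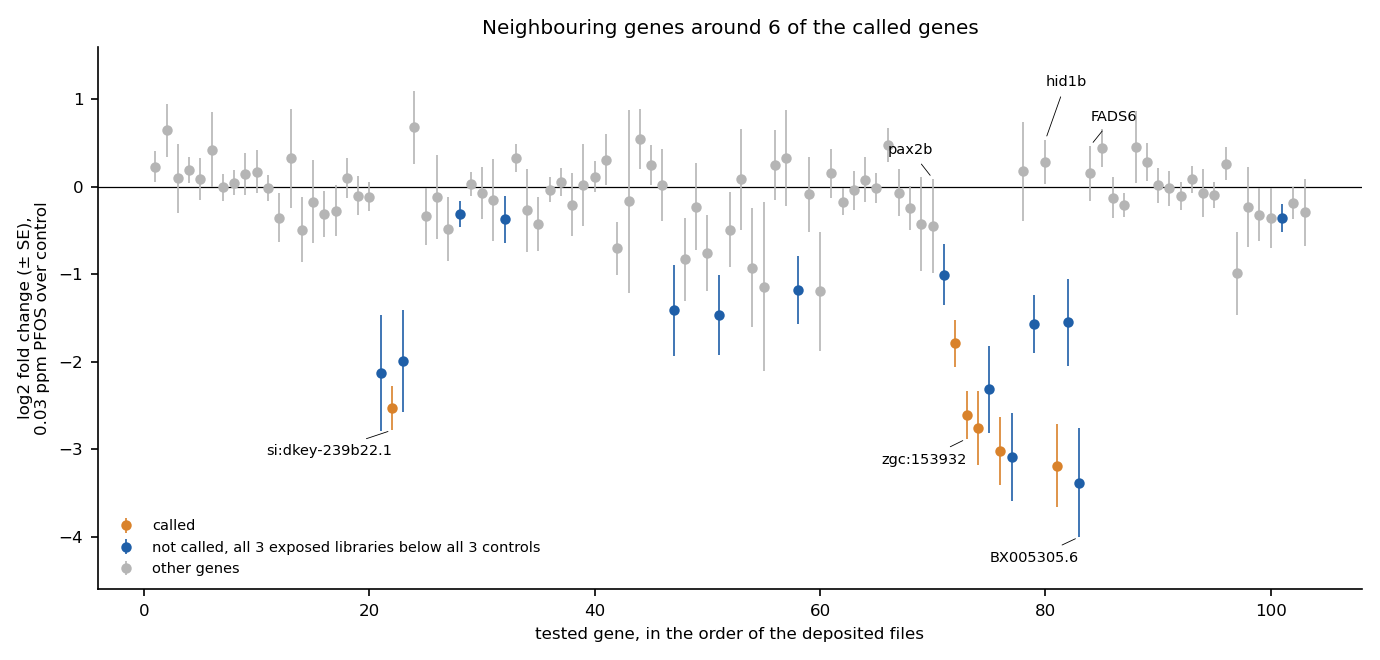
Log2 fold change with SE, 0.03 ppm PFOS over control, of the tested genes around 6 of the called genes, in the order of the files, with 20 genes on each side. Called genes are orange, uncalled genes whose 3 exposed libraries all lie below the 3 control libraries are blue, and the rest are grey. The blue and orange points gather at si:dkey-239b22.1 and in the stretch that ends at BX005305.6. Between these stretches 5 of 47 genes were also lower without overlap, the lowest at -1.47. The labelled genes pax2b, hid1b and FADS6 stay within 0.45 of 0.

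The 13 genes stood at much the same level at 0.03 ppm as at the higher concentrations. Their means at 0.3 and 1 ppm stayed below the lowest control library, for instance 1174 at 0.03 ppm, 1116 at 0.3 ppm and 1097 at 1 ppm for si:dkey-239b22.1. Against the control, 12 of them were also called at 0.3 ppm, lygl1 being the exception with an adjusted p of 0.05025, and all 13 at 1 ppm, where 0.123% and 0.137% of all genes tested were called. Those comparisons use the same 3 control libraries and so are not independent of this one. A direct test of 1 ppm over 0.03 ppm gave log2 differences of -0.47 to 0.18 for the 13 genes. The 95% intervals of these differences spanned 0 for all 13, from -0.33 to 0.42 for DUSP27 and from -0.85 to 1.22 for BX072532.2, so a change of up to about that size between the doses cannot be told from none.

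**Figure D3:**
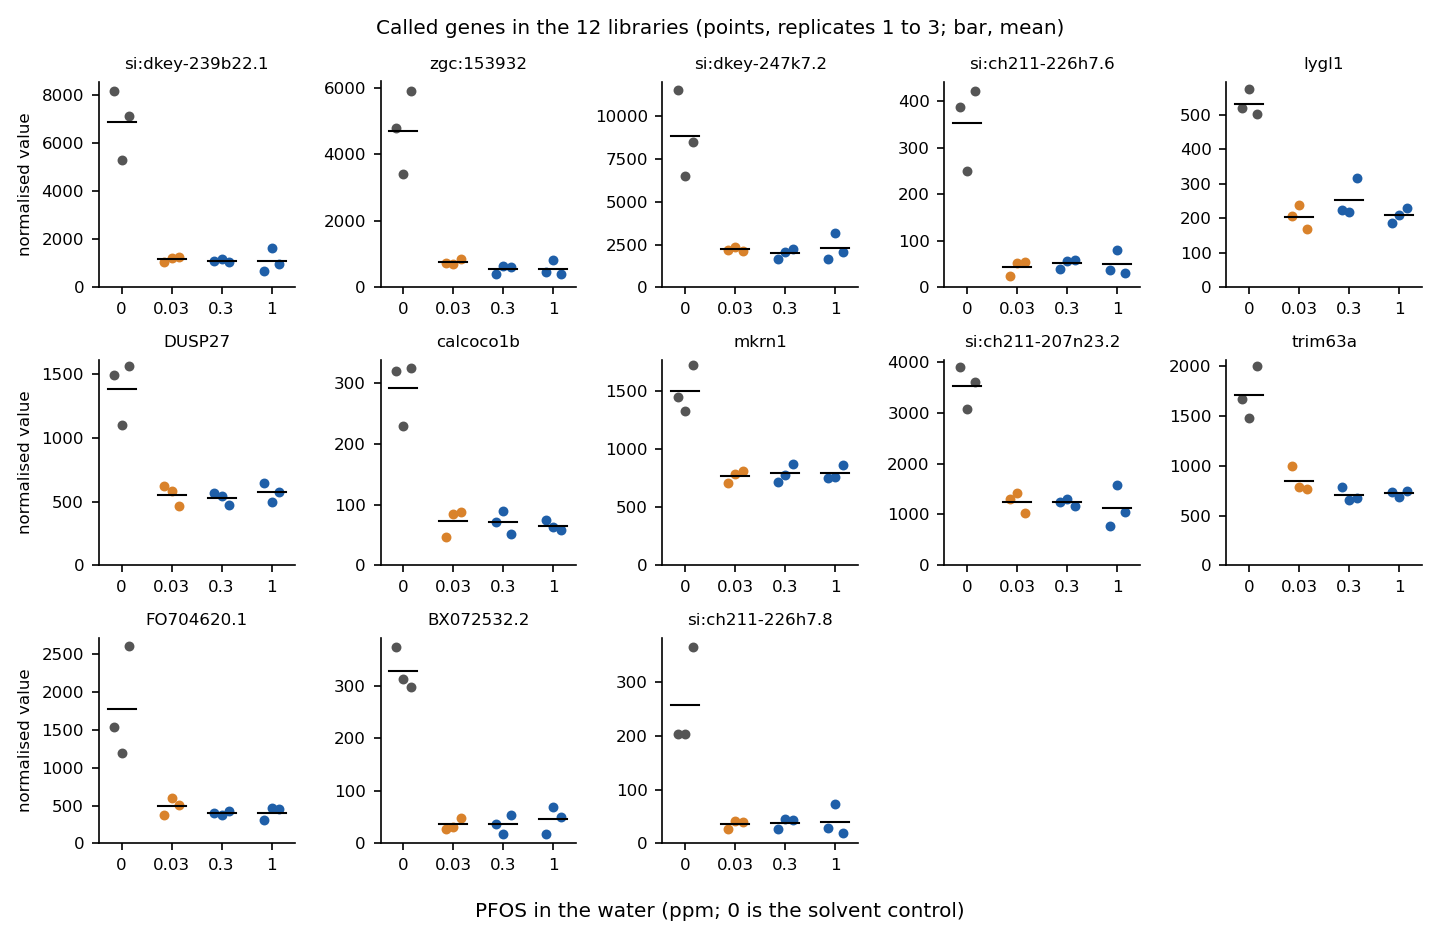
Normalised value of each of the 13 called genes in the 12 libraries, by PFOS concentration in ppm on an axis with equal steps (0 is the solvent control). Points are libraries and bars are means of 3. For each gene the 3 libraries at 0.03 ppm (orange) lie below the 3 controls (grey), at about the level of the 0.3 and 1 ppm libraries (blue). The genes were called from these values, so their separation from the controls follows in part from that choice. Of all genes tested, 3.85% were lower without overlap.

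A few genes missed the threshold narrowly. stat1b, a transcription factor that carries the interferon signal to the nucleus, had 9, 32 and 18 in exposed larvae, against 163, 130 and 90 in controls (log2 fold change -2.76, SE 0.44, adjusted p = 0.0514). si:ch211-226h7.5, of the stretch described above, had an adjusted p of 0.0577. Next came zgc:172065, URGCP (ENSDARG00000036767) and si:ch211-153b23.3 with 0.0930 and, for both of the others, 0.0976. On the inner side BX072532.2 and si:ch211-226h7.8 passed with 0.0344 and 0.0402.

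Besides trim63a, some other members of the muscle atrophy and fasting list had lower values in exposed larvae without passing the test. The list of muscle atrophy and fasting genes had 31 members tested, of which 18 were lower and 13 higher, with a median of -0.13 against -0.02 for all genes. One of the 31, trim63a, was called, and 6 were lower at an unadjusted p under 0.05, where 1.93% of all genes were. fbxo32, which encodes atrogin-1, the other classical ubiquitin ligase of wasting muscle, had 113, 347 and 168 in exposed libraries, against 696, 462 and 1063 in controls (log2 fold change -1.89, SE 0.36, adjusted p = 0.1675). igfbp1b, a binding protein of insulin-like growth factors that rises in fasting fish, had 65, 168 and 51 in exposed libraries and 229, 357 and 281 in controls. Exposed replicate 2 had the highest value of the 3 for both genes and was still below every control. Of all genes, 3.85% were lower without overlap.

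pdk2b, a kinase that holds back pyruvate oxidation, had 2354, 3604 and 2035 in exposed larvae and 4432, 4711 and 4733 in controls (log2 fold change -0.84, SE 0.20, adjusted p = 0.5217). ppp1r27b, a regulatory subunit of protein phosphatase 1, had 66, 75 and 116 in exposed larvae and 242, 168 and 354 in controls. Neither passed the test. The sarcomere genes had a median of -0.21, with 36 of 45 lower and 0 called, and leaving out single libraries gave -0.37 to -0.10. Muscle creatine kinase ckma had 116399, 122628 and 79365 in exposed larvae, against 165085, 172862 and 154389 in controls (-0.65, SE 0.24, adjusted p = 0.9975). In pools of whole larvae, fewer cells of a type and less RNA per cell cannot be told apart.

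The 3 smallest p-values among proteasome genes belonged to genes of its activators. Of 39 proteasome genes 35 were lower and 4 higher, with a median of -0.13 and 0 called. psme4a, which encodes an activator that caps the proteasome in the nucleus, had 253, 295 and 186 in exposed libraries, against 680, 499 and 602 in controls (log2 fold change -1.29, SE 0.26, adjusted p = 0.2367). psme2 and psme1 encode subunits of the interferon-inducible activator PA28. psme2 had 245, 299 and 334 in exposed libraries and 737, 495 and 429 in controls (-0.89, SE 0.22), and psme1 had 295, 502 and 363 in exposed libraries and 560, 624 and 537 in controls (-0.60, SE 0.21). erap2, a peptidase that trims peptides for display on major histocompatibility complex class I, had 53, 57 and 57 in exposed libraries and 145, 126 and 95 in controls (-1.10, SE 0.23, adjusted p = 0.2793). All 4 had groups without overlap, as 3.85% of all genes did in the lower direction and 3.56% in the higher, and none was called.

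Autophagy genes had a median near that of all genes, -0.06, with 31 of 40 lower and calcoco1b the only member called. Its relative calcoco2, a receptor that hands bacteria to autophagosomes in mammals, had 218, 265 and 271 in exposed libraries, against 491, 430 and 400 in controls (log2 fold change -0.81, SE 0.15, adjusted p = 0.1451).

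The interferon response list had the lowest median of the 39 lists, -0.67, with 28 of 32 members lower and 4 higher. Of 47 list genes found in the files, only these 32 passed the filter and were tested. No member was called. At an unadjusted p under 0.05, 8 were lower, where 1.93% of all genes were, and 0 were higher, where 1.59% of all genes were. Median changes between -0.83 and -0.40 were found when single libraries of these groups were left out. irf7, the master switch of interferon genes, had 49, 52 and 50 in exposed larvae, against 113, 163 and 63 in controls (log2 fold change -1.05, SE 0.30). irf1b, an interferon-induced regulator, had 946, 868 and 907 in exposed larvae and 1587, 1577 and 1118 in controls (-0.64, SE 0.19). The 3 exposed pools were close to each other for both regulators, while the controls spread widely.

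NMI, a partner of STAT proteins, had 392, 558 and 278 in exposed larvae, against 853, 901 and 729 in controls (log2 fold change -1.07, SE 0.28, adjusted p = 0.738). isg15, a ubiquitin-like effector, had 12, 16 and 16 in exposed larvae and 60, 49 and 23 in controls. The antiviral GTPase gene mxa had 2, 2 and 8 in exposed larvae and 19, 66 and 10 in controls. Only its control values reached 10, so its lower direction follows from the filter. It is nonetheless counted among the lower members of this list. dhx58, a cytosolic sensor of viral RNA, had 17, 27 and 25 in exposed larvae and 127, 129 and 24 in controls. The dhx58 groups overlapped, because control replicate 3 was as low as the exposed pools. That library was also the lowest control for stat1b, irf7, irf1b, NMI, isg15 and mxa. Its mean log2 value over the interferon list was 6.19, against 6.67 and 6.91 in control replicates 1 and 2. In exposed replicates 1, 2 and 3 this mean was 5.65, 6.18 and 5.97.

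Most members of the macrophage and neutrophil lists had lower values in exposed larvae, and of these lygl1 was called. The macrophage list had 27 of 32 members lower, a median of -0.32 and 1 member called, lygl1. Of its members 7 were lower at an unadjusted p under 0.05, as were 1.93% of all genes. mpeg1.2, which encodes a pore-forming protein of phagocytes, had 352, 567 and 514 in exposed libraries, against 1066, 1005 and 1768 in controls (log2 fold change -1.40, SE 0.30, adjusted p = 0.2793). CD68, a glycoprotein of phagocyte lysosomes, had 1407, 1930 and 1819 in exposed libraries and 3591, 2268 and 3064 in controls (-0.78, SE 0.18). Cathepsin S, a lysosomal protease, is represented by ctss2.2, which had 373, 489 and 251 in exposed libraries and 596, 1136 and 808 in controls (-1.19, SE 0.32), and by ctss2.1 with 99, 110 and 75 in exposed libraries and 121, 183 and 163 in controls.

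The neutrophil list had 17 of 24 members lower and 7 higher, a median of -0.13 and 0 called. Of its members 3 were lower at an unadjusted p under 0.05, as were 1.93% of all genes. Those 3 encode parts of NADPH oxidases, a family of enzymes that make superoxide. cyba had 419, 501 and 383 in exposed libraries, against 559, 595 and 580 in controls (log2 fold change -0.42, SE 0.15). nox1 had 139, 129 and 86 in exposed libraries and 148, 322 and 216 in controls (-0.91, SE 0.33). ncf1 had 139, 159 and 127 in exposed libraries and 188, 202 and 169 in controls (-0.40, SE 0.18). Their groups did not overlap, which held for 3.85% of all genes in the lower direction, and none was called (adjusted p = 0.9975 for each).

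The groups overlapped for the 4 genes taken as defining markers of these cells, mpeg1.1 and csf1ra of macrophages and mpx and lyz of neutrophils. mpeg1.1, the usual macrophage marker of zebrafish, had 271, 427 and 258 in exposed larvae, against 251, 562 and 214 in controls (log2 fold change -0.01, SE 0.35). csf1ra, the receptor for macrophage growth factor, had 571, 471 and 591 in exposed larvae and 409, 556 and 588 in controls (0.08, SE 0.28). mpx, the neutrophil myeloperoxidase, had 206, 267 and 220 in exposed larvae and 165, 264 and 219 in controls (0.11, SE 0.19). lyz, a lysozyme gene, had 764, 366 and 847 in exposed larvae and 796, 869 and 867 in controls (-0.45, SE 0.26). With these standard errors a moderate change in any of the 4 would not be seen, and other members of their lists were lower. The summed macrophage list made up 0.121% to 0.179% of the total in exposed libraries and 0.143% to 0.196% in controls, ranges that overlap. The part that macrophage number has in these values was not tested.

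**Figure D4:**
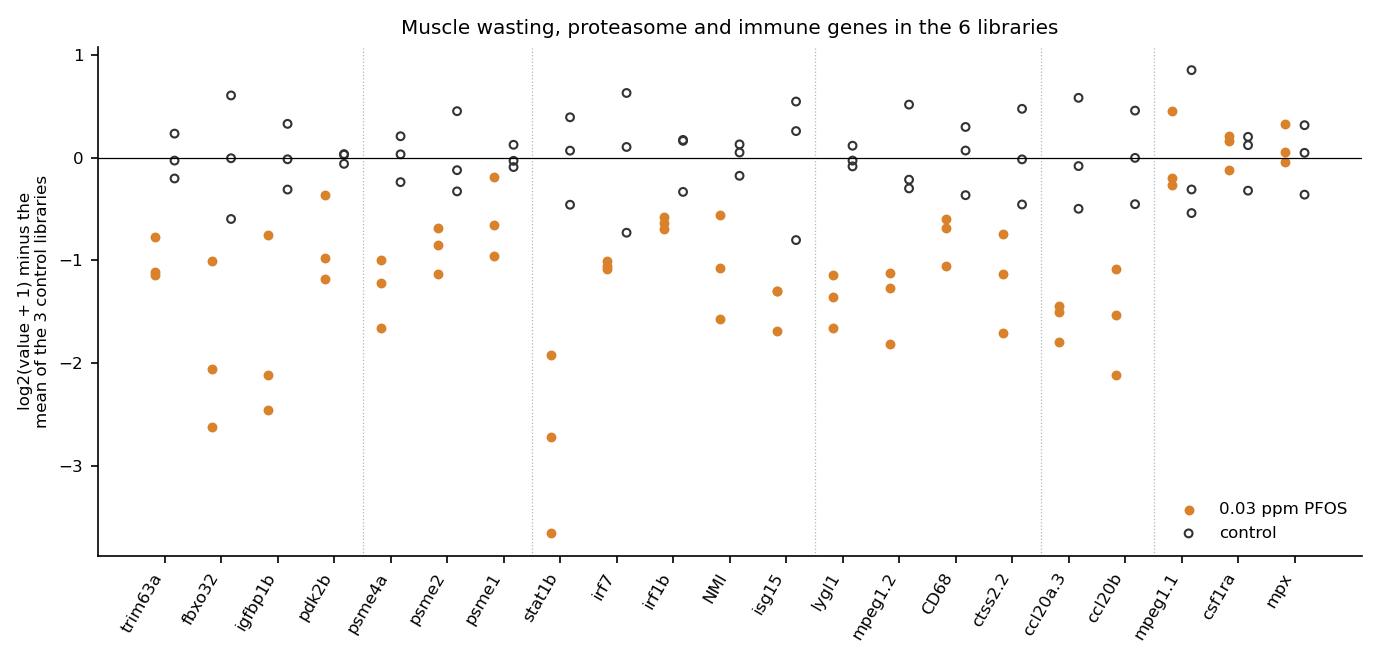
Log2(value + 1) of picked genes, as the difference from the mean of the 3 control libraries. From left to right, separated by dotted lines, are genes of the muscle atrophy and fasting list, proteasome activators, interferon response and the macrophage list. Chemokines and 3 defining markers of macrophages and neutrophils follow. Filled points are 0.03 ppm PFOS libraries and open points control libraries. From trim63a to ccl20b only genes without overlap between the groups are shown, so their separation follows from the choice of genes. Of the whole lists, 7 of 32 interferon genes were lower and 1 higher without overlap. Among the 7 is mxa, not shown, which passed the filter only through its control values. For chemokine and interleukin genes these counts were 5 and 1 of 44. They were 7 and 1 of 31 for muscle atrophy and fasting, 7 and 0 of 39 for the proteasome and 8 and 0 of 32 for macrophages. Of all genes tested, 3.85% were lower and 3.56% higher without overlap. For mpeg1.1, csf1ra and mpx the filled and open points mix, and the marker lyz is not shown. Of the genes shown, trim63a and lygl1 were called.

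Among chemokine and interleukin genes the median was -0.04, with 27 of 44 lower and 0 called. At an unadjusted p under 0.05, 5 were lower, where 1.93% of all genes were, and 1 was higher, where 1.59% were. ccl20a.3, of a chemokine family that draws lymphocytes and dendritic cells in mammals, had 27, 21 and 26 in exposed larvae, against 71, 53 and 113 in controls (log2 fold change -1.58, SE 0.39). ccl20b had 52, 25 and 38 in exposed larvae and 111, 153 and 81 in controls (-1.57, SE 0.48), and il10rb, a subunit of the interleukin-10 receptor, had 494, 506 and 434 in exposed larvae and 621, 711 and 709 in controls (-0.51, SE 0.14). The median of the acute phase and complement list was -0.03, and this and the chemokine and interleukin median both turned when single libraries were left out. Its strongest member was irg1l, related to the enzyme that makes itaconate in phagocytes, with 212, 243 and 254 in exposed larvae and 513, 583 and 1380 in controls (-1.66, SE 0.39, adjusted p = 0.4802).

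krt96, which encodes a keratin of the intermediate filament family, had the smallest p of the epidermis list. That list had 29 of 44 members higher and a median of 0.12, which turned to -0.08 without exposed replicate 2 and was below 0 also without control replicate 1. krt96 had 630, 723 and 361 in exposed libraries, against 1878, 1416 and 1450 in controls (log2 fold change -1.52, SE 0.29, adjusted p = 0.1845). It was lower still at the higher concentrations, with means of 1581 in the control, 571 at 0.03 ppm, 276 at 0.3 ppm and 260 at 1 ppm. The direct difference of 1 ppm over 0.03 ppm was -1.10 on the log2 scale, with a 95% interval of -1.74 to -0.46 and an unadjusted p of 0.00263, which did not pass over all genes (adjusted p = 0.9971).

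Several uncalled genes of lower p in exposed larvae are less well described. plekhs1, with a pleckstrin homology domain, had 206, 168 and 302 in exposed larvae, against 579, 661 and 1407 in controls (log2 fold change -1.89, adjusted p = 0.1447), and the second gene of that name, PLEKHS1 (ENSDARG00000070041), had 90, 75 and 116 in exposed larvae and 188, 219 and 326 in controls. URGCP (ENSDARG00000036767), 1 of several genes with that symbol in the files, had 191, 312 and 308 in exposed larvae and 1875, 908 and 1355 in controls. The lowest fold change of all tested genes belonged to zgc:172053, named here after its values were seen, with 11, 3 and 38 in exposed larvae and 395, 457 and 338 in controls (adjusted p = 0.2367).

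No gene with a higher level in exposed larvae passed the test. The highest log2 fold change of all genes tested was 4.55, above that of every higher gene named here. The higher genes named here are therefore not those with the largest increase. Decorin (dcn), a proteoglycan that binds collagen fibrils, had 3149, 3158 and 3092 in exposed libraries, against 1979, 2605 and 2313 in controls (log2 fold change 0.46, SE 0.12, adjusted p = 0.8107). mmp2, a gelatinase of the extracellular matrix, had 4771, 4300 and 5193 in exposed libraries and 2346, 3399 and 3879 in controls (0.59, SE 0.17). pcolce2b, an enhancer of procollagen processing, had 501, 668 and 570 in exposed libraries and 237, 469 and 357 in controls (0.75, SE 0.23). The cartilage, bone and collagen list was higher in 43 of 49 members, with a median of 0.20 and 0 called, and 4 members were higher at an unadjusted p under 0.05, where 1.59% of all genes were. Without replicate 1 of both groups its median was -0.05.

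igfbp5b, a binding protein of insulin-like growth factors that is laid down in matrix, had 2431, 2519 and 2574 in exposed libraries, against 1847, 1755 and 1914 in controls (log2 fold change 0.45, SE 0.11, adjusted p = 0.5254). hmga2, a chromatin protein of growing cells, had 687, 652 and 673 in exposed libraries and 291, 380 and 497 in controls (0.82, SE 0.21). tcf7, a transcription factor of the Wnt pathway, had 77, 93 and 73 in exposed libraries and 45, 36 and 49 in controls (0.89, SE 0.21, adjusted p = 0.4802). The exposed pools of these 3 genes were close together and above all controls. Lack of overlap was a condition for naming them, and 3.56% of all genes were higher without overlap. abcc6b.2, an ABC transporter, had 79, 163 and 93 in exposed libraries and 46, 40 and 29 in controls (1.47, SE 0.35, adjusted p = 0.4709). slc25a1b (mitochondrial citrate carrier), COLGALT1 (a collagen galactosyltransferase) and aff3 (a nuclear factor of transcription) were the other named genes of this kind, with log2 fold changes of 0.64, 0.69 and 0.45.

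Lists of lipid and xenobiotic genes had medians near that of all genes. Of 33 genes of interest for PFOS, from lipid, hormone, liver and immune pathways, 29 were tested, with a median of 0.04, 15 higher, 14 lower and 0 called. cyp1a, the marker enzyme of the aryl hydrocarbon receptor, had 425, 427 and 235 in exposed larvae, against 397, 397 and 299 in controls. cyp7a1, the rate-limiting enzyme of bile acid synthesis, had 411, 488 and 426 in exposed larvae and 410, 437 and 388 in controls. The groups overlapped for both genes.

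The smallest p in that panel belonged to pparg, a receptor of fat cell differentiation, with 170, 267 and 187 in exposed larvae and 102, 147 and 173 in controls (log2 fold change 0.57, SE 0.22, adjusted p = 0.9975). scd, a fatty acid desaturase, had 23, 26 and 21 in exposed larvae and 12, 19 and 8 in controls (0.87, SE 0.35, adjusted p = 0.9975). The lists of fatty acid oxidation and PPAR targets, fatty acid and cholesterol synthesis, xenobiotic metabolism and bile acid had medians of 0.03, 0.04, 0.05 and 0.10, all with 0 called, and of these and the panel only bile acid kept the sign of its median when single libraries were left out. The liver marker list was higher in 33 of 43 members with a median of 0.20, which was -0.01 without control replicate 3.

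The lists for stress, growth and other tissues had 0 members called. Medians were 0.10 for heat shock, 0.09 for endoplasmic reticulum and amino acid stress, -0.02 for oxidant defence, 0.01 for glucocorticoid and circadian genes, -0.04 for the cell cycle and -0.06 for p53 and apoptosis. Immediate early genes had a median of -0.21, which ranged from -0.49 to 0.31 when single libraries were left out. The gene serpinh1a, which encodes a collagen chaperone, had 2326, 2231 and 2449 in exposed libraries, against 1653, 2000 and 1808 in controls (log2 fold change 0.36, SE 0.12, adjusted p = 0.9975). The survival gene mcl1a had 3451, 2891 and 2600 in exposed libraries and 3554, 5190 and 4225 in controls (-0.53, SE 0.17). The gene abca1a, which encodes a cholesterol exporter, had 1764, 2800 and 1951 in exposed libraries and 3635, 2998 and 2824 in controls (-0.56, SE 0.20), in a lipoprotein transport list with a median of -0.07. The groups of these 3 genes did not overlap, as held for 3.85% of all genes in the lower direction and 3.56% in the higher, and none was called. Ionocyte, heart muscle, erythrocyte and intestine lists had medians of 0.18, 0.07, 0.07 and 0.05, neutrophil, nuclear respiratory chain, mitochondrial genome and endocrine growth lists had -0.13, -0.09, 0.11 and 0.05, and those of photoreceptors, glia, endocrine pancreas and the thyroid axis had -0.09, -0.10, -0.12 and -0.07. Of the medians in this paragraph, those for endoplasmic reticulum stress, p53, lipoprotein transport, neutrophils, the nuclear respiratory chain and endocrine growth kept their sign when each single library of either group was left out. The others turned, among them ionocytes (-0.12 to 0.34), heart muscle (-0.07 to 0.38), erythrocytes (-0.08 to 0.35), the mitochondrial genome (-0.14 to 0.26), glia (-0.27 to 0.17), photoreceptors (-0.27 to 0.20) and endocrine pancreas (-0.24 to 0.11). With replicate 1 of every group left out, the medians of endoplasmic reticulum stress and lipoprotein transport also turned, to -0.0085 and 0.0152. That of the nuclear respiratory chain turned to 0.0061 without replicate 3.

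Some lists had nearly all members on the same side without any call. All 82 cytosolic ribosomal protein genes were lower, with a median of -0.23, and 9 of the 82 were without overlap, as 3.85% of all genes were in that direction. rplp0, of the ribosomal stalk, had 172500, 150802 and 106602 in exposed libraries against 187694, 224099 and 177398 in controls. At 0.3 and 1 ppm their medians against the same controls were -0.03 and -0.08. Of the 55 genes of neurons and synapses 54 were lower, with a median of -0.28 that turned to 0.14 without control replicate 1, the library with the most neuronal transcripts. Lens genes were lower in 50 of 54, median -0.45, and 0.02 without exposed replicate 3. The exocrine pancreas list ranged from -0.95 to 0.43 when single libraries were left out, and its main median was -0.29. These directions therefore depended on single libraries for neuron, lens and exocrine pancreas, and for the ribosome the median stayed between -0.31 and -0.12.

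**Figure D5:**
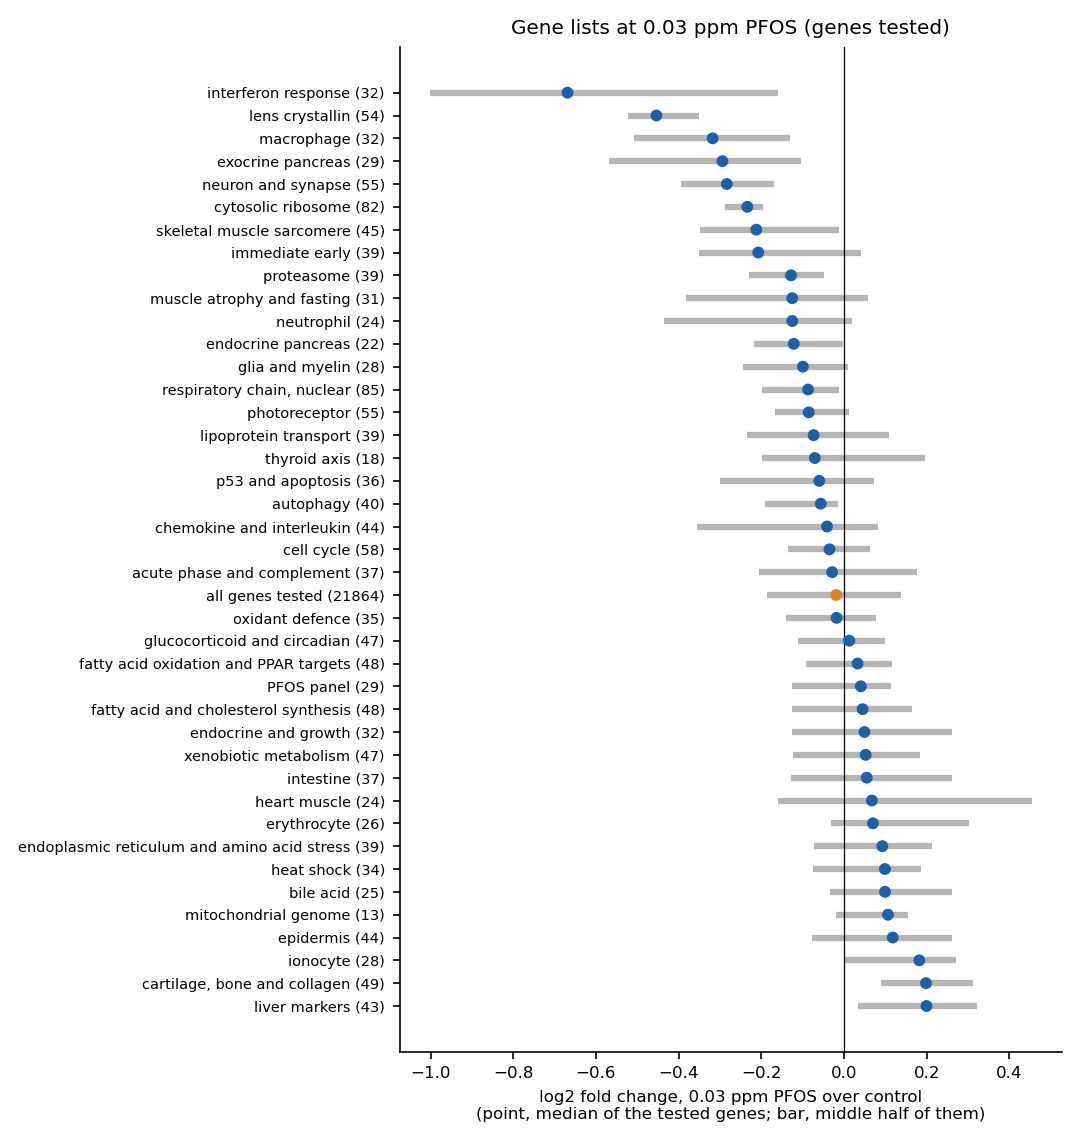
Median log2 fold change (point) and interquartile range (bar) of the tested members of each gene list, 0.03 ppm PFOS over control, with all tested genes in orange. The interferon response list has the lowest median, -0.67, and the liver marker list the highest, 0.20, and the number of tested members stands in brackets.

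No gene differed between 0.3 and 0.03 ppm or between 1 and 0.03 ppm by limma at an adjusted p under 0.05. Unadjusted p-values below 0.05 were found for 307 genes (1.4%) with 0.3 ppm and 644 (2.95%) with 1 ppm. ddit4, an inhibitor of the growth kinase mTOR that answers to stress, had its lowest values at 0.03 ppm. Its values were 590, 851 and 522 in the control, 373, 240 and 377 at 0.03 ppm, 621, 755 and 669 at 0.3 ppm and 592, 513 and 865 at 1 ppm, and the difference of 0.3 over 0.03 ppm was 1.07 on the log2 scale (unadjusted p = 0.000783). cda, the cytidine deaminase of pyrimidine salvage, had 340, 403 and 226 in the control, 258, 244 and 215 at 0.03 ppm, 345, 281 and 293 at 0.3 ppm and 447, 604 and 607 at 1 ppm, with a log2 difference of 1.2 for 1 over 0.03 ppm and a 95% interval of 0.74 to 1.65. FO904928.1 was below the limit of the comparison. It was listed at 0 in all 6 libraries of control and 0.03 ppm, at 16 to 72 in the 3 libraries of 0.3 ppm and at 45 to 49 in the 3 of 1 ppm, and it was named after its values were seen.

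noxo1a, an organiser of NADPH oxidase, had 279, 377 and 414 in the control, 218, 249 and 326 at 0.03 ppm, 112, 101 and 153 at 0.3 ppm and 111, 201 and 176 at 1 ppm. sb:cb1058 had 517, 604 and 517 in the control, 563, 609 and 628 at 0.03 ppm, 737, 746 and 749 at 0.3 ppm and 936, 986 and 829 at 1 ppm. The 0.03 ppm pools of sb:cb1058 overlapped the controls, and those of the higher concentrations did not. pla2g12b, a secreted phospholipase-like protein needed for lipoprotein assembly, had 4614, 3883 and 4924 in the control, 3032, 3831 and 4073 at 0.03 ppm, 6149, 4857 and 5741 at 0.3 ppm and 5893, 5044 and 5861 at 1 ppm. il17ra1b, an interleukin-17 receptor gene, had 24, 41 and 33 in the control, 39, 42 and 34 at 0.03 ppm, 42, 40 and 36 at 0.3 ppm and 13, 18 and 18 at 1 ppm. CU914622.2, between the stretches described above, had 69, 36 and 25 in the control and 46, 33 and 43 at 0.03 ppm. At 0.3 ppm it had 7, 14 and 12, and at 1 ppm 8, 10 and 17. The remaining genes of smallest p were defbl1 for 0.3 ppm, and BX004828.1 and si:ch1073-126c3.2 for 1 ppm. None of these differences from 0.03 ppm passed over all genes.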

How the data were processed

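Messenger RNA of pooled whole larvae was sequenced in 12 libraries, 3 per group, of which 6 belong to this comparison. Per the submitters' processing notes the tools were CASAVA, STAR 2.5.1b, RSEM 1.2.28 and DESeq2 1.10.1 on the build GRCz10; settings and strand handling are not given in the sources used here. The authors deposited normalized counts rounded to whole numbers, recorded here as a score because they are no raw counts, so no count model was run and counting intervals cannot be given. A deposited table of all samples holds the same values and was left out.

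The values were not rescaled. Limma 3.58.1 (R 4.3.3) fitted log2(value + 1) in the 12 libraries jointly, with each group's mean as a coefficient and a trended empirical Bayes step. Tests were two-sided and adjusted by Benjamini-Hochberg over the 21864 genes. An exact test of 3 against 3 libraries cannot go below p = 0.1. The script was tested on simulated data.

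Gene members and the 39 lists were chosen with earlier results of these data known, and the lists are described without a test. Genes are named by a rule: every called gene, the 10 uncalled genes per direction of smallest p with no overlap, a mean of at least 50 and a proper symbol, up to 5 genes per list, a PFOS panel, and the 5 genes of smallest p between 0.03 ppm and each higher dose. Neighbours of called genes and genes said to be named after their values were seen fall outside it. A gene of the panel is not reported here. Symbols come from the files. The file order was checked against RefSeq (GRCz12tu) by chromosome only, with the 17667 genes found there once by symbol. Alternatives covered scaling, filter, pseudocount, empirical Bayes step, library weights, replicate block and left-out libraries. Figures were drawn with matplotlib 3.10.9.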

Additional observations from a re-analysis of the deposited data

How the results depend on the processing

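The number of called genes at 0.03 ppm, 13, was 12 to 16 under median-of-ratios or trimmed-mean scaling, another filter or pseudocount, or a robust empirical Bayes step. It was 6 with equal totals, 2 without a mean-variance trend, 59 with library weights (55 lower, 4 higher) and 3 with only these 6 libraries in the fit. It ran from 0 to 11 with a library or a replicate number left out. The replicate numbers were not taken as pairs in the main fit, and what same-numbered libraries share is not stated. The correlation of deviations between same-numbered libraries was 0.12, 0.31 and 0.08, and between libraries of different number -0.36 to 0.24. A replicate block gave 20 calls, the same 13 among them, with stat1b, psme4a, plekhs1 and ctss2.2 among those added. The block changed no count between doses. Between 0.3 and 0.03 ppm, and between 1 and 0.03 ppm, the count was 0 under all settings but the filter over all 12 libraries, where it was 1 (FO904928.1) in each. The cause of these shifts was not tested. The fits that leave libraries out also hold fewer samples. Leaving out single libraries of 0.3 or 1 ppm was added after seeing the data.

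No called gene changed direction under any alternative. Of the uncalled genes with a log2 fold change near 0, mpeg1.1 was at 0.053 with equal totals, 0.25 with library weights and -0.28 to 0.42 with a library or replicate number left out. In the same order of settings cyp1a was at 0.011, 0.0026 and -0.19 to 0.24. The gene csf1ra was at -0.030 with library weights and -0.12 to 0.24 with libraries left out, where mpx ran from -0.066 to 0.27. The depth of raw reads is unknown, so the limit of detection of low genes cannot be given.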
